A study of Mus musculus with 12 samples.

Results

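The genes of the cytosolic ribosomal proteins were examined in spleen RNA of male ICR mice, an outbred stock. A gene was included where its mouse symbol was Rpl or Rps followed by digits and an optional a, x or l, or was Rplp0, Rplp1, Rplp2, Rpsa or Fau, and pseudogenes named -ps and the Rps6k kinases were left out. This gave 81 of the 18221 genes in the files, 49 of the large and 32 of the small ribosomal subunit. The rule used no measured value. Of 84 symbols that fit the rule in the RefSeq gene table, Rps4l, Rpl10l and Rpl6l were not analysed here.

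There were 3 mice in each of 4 groups. Con-sa mice were dosed with saline and received no busulfan. B-sa mice received a single injection of busulfan, an alkylating drug toxic to blood-forming cells, at 40 mg/kg body weight plus saline. B+Con-FMT and B+A10-FMT mice received the same busulfan dose and daily oral transplants for 2 weeks of small intestine content, pooled from donor mice given water (Con-FMT) or alginate oligosaccharide at 10 mg/kg body weight (A10-FMT). The labels name the same groups by agent as Blank, Busulfan, Busulfan+Con-FMT and Busulfan+A10-FMT. All mice entered at 3 weeks of age and were killed at 8 weeks, and the mice of an FMT group received content pooled over donors, not that of single donors.

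A ribosome is built from ribosomal RNA and a fixed set of proteins, and its subunits need nearly all of these proteins in equal numbers, so their genes are known to be expressed highly in every cell. Their mRNAs are short and begin with a 5′ terminal oligopyrimidine (TOP) tract, through which mTOR and LARP1 control their translation and LARP1 their stability. When ribosome assembly is disturbed, free RPL5 and RPL11 bind MDM2 and stabilise p53, and loss of 1 copy of RPS19 and several related genes causes Diamond-Blackfan anemia, a failure of red cell production. The spleen of a mouse makes red cells and holds B cells, T cells and phagocytes, all of which contain ribosomes.

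Values are RPKM, read numbers that the authors set per kilobase of transcript and per size of the library, summed over the transcripts of a gene. A level in RPKM is therefore already given per length. Differences are log2 fold changes of RPKM + 1 with their standard error (SE) from limma, fitted to the 12671 genes that reached 1 RPKM in 3 or more mice, and p-values were adjusted over all of these genes after Benjamini and Hochberg. Genes with an adjusted p under 0.05 are named called, as higher or lower in the first group of a comparison. The p-values rest on how far the 3 mice within each group lay apart.

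Several properties of the whole libraries bear on these genes. The relative depth differed little between mice, from 0.988 to 1.010. Globin transcripts took 23.3% to 32.4% of the summed RPKM, with the highest mean in B-sa. The summed RPKM of 13 genes of pancreatic acinar cells, which are not cells of the spleen, was 9662 to 15530 in the B+Con-FMT mice and 534 to 11430 in the other 9 mice, and its part in any comparison with B+Con-FMT was not tested. The defining markers of B cells, T cells, macrophages and erythroid cells were above 0 in every group. In RNA of whole tissue, fewer cells of a type and less RNA per cell cannot be told apart.

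The ribosomal protein genes were among the most abundant transcripts of the spleen. Of the 81 genes, 78 passed the filter, and 57 of them had a mean of at least 1000 RPKM over the 12 mice, a level that 96 of all 18221 genes reached. The 78 genes had a median of 1481 RPKM, against 12.4 RPKM for all genes tested. Their sum took 16.4% ± 0.42 (SD, n = 3) of the summed RPKM in Con-sa mice, 14.9% ± 0.58 in B-sa mice, 16.0% ± 0.54 with Con-FMT and 15.9% ± 0.46 with A10-FMT. The 3 B-sa mice, at 14.4% to 15.5%, lay below the 3 Con-sa mice, at 16.1% to 16.9%. Outside the globin genes the shares were closer, 22.1% ± 0.41 in Con-sa mice, 21.3% ± 0.56 in B-sa mice, 21.99% ± 0.16 with Con-FMT and 21.2% ± 0.38 with A10-FMT, and the mice of B-sa and Con-sa overlapped. The B+A10-FMT mice, at 20.78% to 21.51%, lay below the Con-sa mice, at 21.65% to 22.47%, and the B+Con-FMT mice, at 21.83% to 22.14%.

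**Figure D1:**
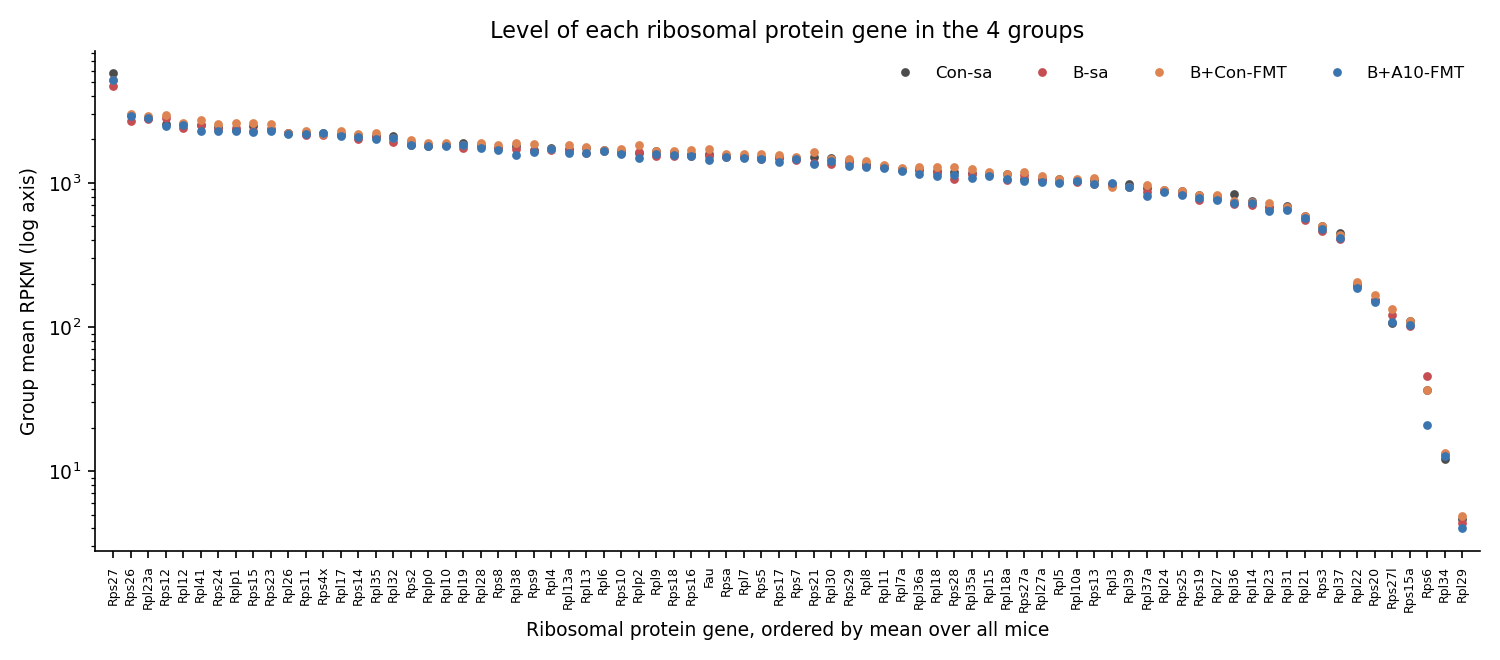
Mean RPKM (log axis) of each of the 78 ribosomal protein genes that passed the filter, ordered by its mean over the 12 mice, with 1 point per group of 3 mice. The 4 points of most genes nearly coincide, from Rps27 at 5188 RPKM to Rpl29 at 4.47 RPKM, and Rps6 is the gene whose points lie farthest apart.

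The highest levels were those of Rps27, Rps26, Rpl23a, Rps12 and Rpl12, the last at 2524 RPKM. Rps27, a zinc finger protein of the small subunit, had 5188 RPKM and stood apart from Rps26, an mRNA exit channel protein, at 2892 RPKM and Rpl23a, which lies at the exit of the peptide tunnel, at 2827 RPKM. Rplp0, the base of the acidic stalk that recruits elongation factors, had 1840 RPKM, ranging from 1741 to 1976 RPKM over the 12 mice. Rpl41, which encodes a very short basic peptide, had 2503 RPKM, and Rpsa, the laminin receptor protein of the small subunit, had 1534 RPKM. Rpl39, a small protein of the peptide tunnel, had 949 RPKM and Rpl10, among the last proteins to join the large subunit, had 1830 RPKM.

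At the other end were genes of 3 kinds. Rps15a at 106 RPKM, Rps20 at 156 RPKM and Rpl22 at 196 RPKM had the 3 greatest transcript lengths used here for the set, at 5179, 3706 and 2051 bases. Rps27l, a p53-induced relative of Rps27, had 117 RPKM. Rpl3l, Rpl39l and Rpl32l, relatives of widely expressed ribosomal genes, had 0.22, 0.13 and 0.051 RPKM and were not tested. Rpl3l is known from striated muscle and Rpl39l from male germ cells. Rps6, Rpl34 and Rpl29 had 34.98, 12.9 and 4.47 RPKM, and each has a near-identical copy elsewhere in the genome.

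The mouse genome holds processed copies of ribosomal protein mRNAs, and reads from a gene and such a copy can be assigned to either. Rps6, the small subunit protein that S6 kinases phosphorylate, lies on chromosome 4 (86854099 to 86857367, GRCm38), and its copy Rps6-ps4 lies on chromosome 2 (75190995 to 75191854). The copy had 2454 RPKM where Rps6 had 34.98 RPKM. The 750 bases of the GENCODE M21 transcript of Rps6-ps4 were found without a mismatch in the 878 bases of the Rps6 transcript, so that a read within them cannot be told apart. Rpl34 differed from Rpl34-ps1 (2158 RPKM, on chromosome 6, 71124589 to 71125001) at 2 of 354 bases, T132C and C318G. Rpl29 differed from Gm8210 (983 RPKM, on chromosome 1, 43189052 to 43189773) at 3 of 483 bases, C72A, C300T and T423C. In these tokens the base of the gene comes first and that of the copy last, and positions count from 1 at the A of the start codon.

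The first 60 coding bases of Rps6 and its copy, and 60 coding bases of the other pairs around the first difference, show how little separates the reads of a pair. Capitals mark the base that differs, of which there is none between Rps6 and its copy, and the sequences are those of GENCODE M21 transcripts.
Rps6: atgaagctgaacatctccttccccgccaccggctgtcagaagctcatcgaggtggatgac
Rps6-ps4: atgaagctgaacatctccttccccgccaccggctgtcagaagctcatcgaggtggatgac
Rpl34: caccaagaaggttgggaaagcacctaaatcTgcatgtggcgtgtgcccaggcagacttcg
Rpl34-ps1: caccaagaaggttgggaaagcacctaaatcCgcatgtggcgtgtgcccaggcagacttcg
Rpl29: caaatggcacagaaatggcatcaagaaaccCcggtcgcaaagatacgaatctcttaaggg
Gm8210: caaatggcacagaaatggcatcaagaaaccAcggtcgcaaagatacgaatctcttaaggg

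With the copy added, these genes reached the level of the rest of the set. Rps6 held 0.477% to 1.94% of the summed RPKM of its pair over the 12 mice, Rpl34 0.435% to 0.696% and Rpl29 0.372% to 0.508%. The Rps6 pair had 2459 ± 64 RPKM in Con-sa mice, 2506 ± 119 in B-sa mice, 2570 ± 92 with Con-FMT and 2420 ± 82 with A10-FMT (SD, n = 3 each), and the pair was called in none of the 6 comparisons. The values given below for these 3 genes alone describe the small remainder of reads listed under them. In all, 3 ribosomal protein copies named -ps were in the files, of which Rpl31-ps12 had 43.4 RPKM.

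**Figure D2:**
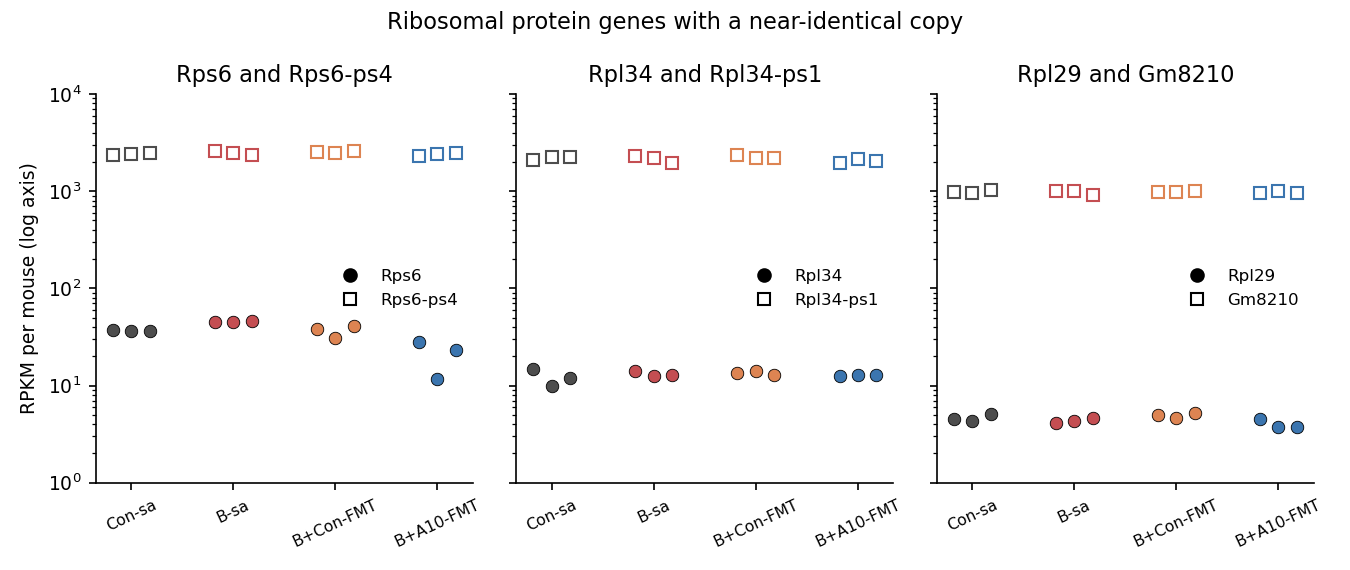
RPKM per mouse (log axis) of Rps6, Rpl34 and Rpl29 (filled circles) and of their near-identical copies (open squares) in the 4 groups of 3 mice. The copies lie at 908 to 2615 RPKM in every mouse, whereas the genes lie at 3.74 to 46.2 RPKM, and the B+A10-FMT mice have the lowest Rps6 values.

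The start sites of the genes were read as well, since the TOP tract is the feature their mRNAs are known to share. RefSeq promoter windows (GRCm38.p6) were matched for 58 of the 78 genes tested. A C at the annotated start followed by 4 bases that are each C or T was found in 14 of the 58 genes (24.1%) and in 2.84% of all 10124 genes tested that have a window. A run of at least 8 bases that are each C or T, within 25 bases of the start on the strand of the gene, was found in 32 genes (55.2%), against 23.2% of all genes tested. The genes of mitochondrial ribosomal proteins, whose mRNAs are not known as TOP mRNAs, had the tract at the start in 0 of 69 and the run in 24.6%. The windows of 25 bases on each side of the start are shown for 6 genes called in the comparisons below, with the longest run of C and T in capitals, or the first of them where several are equally long. The runs of Rps12, Rplp2, Rps27 and Rps27l are 11, 10, 9 and 9 bases long, whereas those of Rps21 and Rpl41, at 7 and 3 bases, do not reach 8. For Rps12 and Rps27l the start used in the promoter table lies inside the outer bounds of the gene, and Rps27l has a further start in the table that is not shown.
Rps12 (chr10:23787185-23787234, minus strand): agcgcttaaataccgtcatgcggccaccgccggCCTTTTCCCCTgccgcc
Rps27 (chr3:90213624-90213673, minus strand): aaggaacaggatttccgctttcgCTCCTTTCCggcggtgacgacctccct
Rplp2 (chr7:141447626-141447675, plus strand): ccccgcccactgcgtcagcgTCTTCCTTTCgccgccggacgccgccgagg
Rps27l (chr9:66946061-66946110, plus strand): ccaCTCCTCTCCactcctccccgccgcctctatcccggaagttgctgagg
Rps21 (chr2:180257354-180257403, plus strand): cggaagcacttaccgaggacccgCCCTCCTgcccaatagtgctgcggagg
Rpl41 (chr10:128549144-128549193, minus strand): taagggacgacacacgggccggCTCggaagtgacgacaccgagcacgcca

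The genes varied little between mice. The median SD within groups was 0.0615 on the log2 scale for the 78 genes, against 0.0991 for all genes tested, and 74 of the 78 genes had a coefficient of variation under 10% over the 12 mice. The most variable within groups were Rps6 with an SD of 0.33, Rpl36, a large subunit protein, with 0.22 and Rpl34 with 0.14. The Rpl36 values ran from 553 to 883 RPKM, and its groups overlapped in all 6 comparisons. The genes also moved together from mouse to mouse. In B-sa mouse 3, 6 of the 78 genes were above their own mean over the 12 mice, with a median deviation that fell by 0.11 on the log2 scale, whereas 51 and 39 genes were above it in B-sa mice 1 and 2. In B+A10-FMT mice 1, 2 and 3 the same count was 3, 26 and 10, and in B+Con-FMT mice 1, 2 and 3 it was 71, 58 and 72. The median deviation of all genes tested was -0.03 in B-sa mouse 3. It was 0.01 to 0.04 in the B+A10-FMT mice and -0.04 to 0.00 in the B+Con-FMT mice. The part of shifts of whole libraries in these counts was not tested.

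Busulfan alone was accompanied by few differences in these genes, as the comparison of B-sa with Con-sa, which addresses the effect of the drug on the spleen, showed. Rps27 had 5497, 5876 and 5819 RPKM in Con-sa and 4903, 4822 and 4311 RPKM in B-sa. All B-sa mice lay below all Con-sa mice, and Rps27 was called lower (log2 fold change -0.29, SE 0.06, limma adjusted p = 0.0122). It was the only member called, 1 of 78 (1.28%), whereas 14.5% of all genes tested were called and 9.78% were called lower and 4.73% higher. The marker genes of B cells summed to 1991 to 2197 RPKM in Con-sa and 1529 to 1828 RPKM in B-sa, with 5 of 8 called lower, and those of neutrophils to 2040 to 2117 and 3634 to 5950 RPKM. Of the markers of proliferation 6 of 8 were called higher and of those of NK cells 4 of 4 lower. Of the markers of erythroid cells 2 of 7 were called higher, Klf1 and Tfrc, with 7 of 7 above 0, and 1 of 5 endothelial markers was called lower. Those of macrophages summed to 331.8 to 350.5 RPKM in Con-sa and 292.7 to 329.7 RPKM in B-sa, with 1 of 7 above 0 and none called. The globin genes summed to 174100 to 181300 RPKM in Con-sa and 206100 to 250200 RPKM in B-sa, with 3 of 7 tested called higher and 2 lower. The part of these marker lists in the result was not tested.

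Rps12 and Rps27l had higher means in B-sa without passing the threshold. Rps12, a small subunit protein of the head domain, differed by 0.13 (SE 0.04, limma adjusted p = 0.0509) and Rps27l by 0.20 (SE 0.07, limma adjusted p = 0.062). Rps19, the gene most often mutated in Diamond-Blackfan anemia, had 805, 830 and 849 RPKM in Con-sa and 802, 749 and 727 RPKM in B-sa, and it was not called (-0.13, SE 0.05, limma adjusted p = 0.0881). Every B-sa mouse lay below every Con-sa mouse for Rps19.

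Over the 78 genes the median log2 fold change in B-sa against Con-sa was -0.04, the same as the -0.04 of all genes tested, and 18 genes were above 0. The median without B-sa mouse 3 was -0.00, and 2 members were called without Con-sa mouse 3, B-sa mouse 1 or B-sa mouse 3. The mice did not overlap for 14 members that were lower and 3 that were higher, which is 17.9% and 3.85%, against 22.8% and 11.2% of all genes. The scaling of the libraries decided the split of the calls in this comparison: with the summed RPKM of every mouse set equal, 24 members were called lower, and with median-of-ratios scaling 3 were called higher and 1 lower.

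Con-FMT after busulfan was accompanied by slightly higher values of most of the genes, with none called. In B+Con-FMT against B-sa, 76 of the 78 genes were above 0 and the median was 0.10, against -0.00 for all genes tested. Limma called 0 of 78 genes, against 0.844% of all genes (0.623% higher and 0.221% lower), and 28 members (35.9%) had an unadjusted p under 0.05, all of them higher, against 18.4% of all genes in either direction. All B+Con-FMT mice lay above all B-sa mice for 30 genes (38.5%), against 10.4% of all genes, and below them for 1 gene, against 9.05%. Without B-sa mouse 3 the median was 0.05, and with equal totals outside the globin genes it was 0.04 with 59 members above 0. The marker genes of T cells summed to 256 to 326 RPKM in B-sa and 331 to 410 RPKM in B+Con-FMT, with 7 of 7 above 0 and 1 called higher. Those of neutrophils summed to 3634 to 5950 RPKM in B-sa and 2356 to 3394 RPKM in B+Con-FMT, with 0 of 8 above 0, and those of plasma cells to 712 to 927 and 634 to 681 RPKM, with 0 of 5 above 0. Of the markers of proliferation 0 of 8 were above 0, of those of erythroid cells 0 of 7 and of those of endothelium 0 of 5, with none called, and the part of all these lists in the result was not tested.

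Against Con-sa, the mice of B+Con-FMT had higher levels of Rps27l, Rps12 and Rps27a. Rps27l had 105, 97.8 and 115 RPKM in Con-sa and 133, 127 and 138 RPKM in B+Con-FMT, with no overlap (log2 fold change 0.32, SE 0.07, limma adjusted p = 0.0146). Rps12 had 2596, 2483 and 2604 RPKM in Con-sa and 3000, 2900 and 2915 RPKM in B+Con-FMT (0.20, SE 0.04, limma adjusted p = 0.0133). Rps27a, which is made as a fusion with ubiquitin, had 1064 ± 32 and 1186 ± 28 RPKM (SD, n = 3 each) in these groups, a difference of 0.16 (SE 0.04, limma adjusted p = 0.04).

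These were 3 of 78 genes called, all higher, against 8.87% of all genes called, 2.30% higher and 6.57% lower. All 3 belong to the small subunit. The mice did not overlap for 15 members that were higher and 1 that was lower (19.2% and 1.28%), against 10.6% and 23.6% of all genes. The median of the members was 0.05, against -0.04 for all genes. The marker genes of T cells summed to 260 to 304 RPKM in Con-sa and 331 to 410 RPKM in B+Con-FMT, with 3 of 7 called higher. Of the markers of NK cells 4 of 4 were called lower, of those of endothelium 4 of 5 and of those of B cells 2 of 8. Of those of macrophages 1 of 7 was called lower and of those of plasma cells 1 of 5, with 0 above 0 in either list. Of those of proliferation 1 of 8 was called higher. Those of neutrophils summed to 2040 to 2117 RPKM in Con-sa and 2356 to 3394 RPKM in B+Con-FMT, and the part of these lists in the result was not tested. Leaving out Con-sa mouse 2 left 0 calls, and leaving out Con-sa mouse 1 or B+Con-FMT mouse 1 left 1. With equal totals outside the globin genes, 2 members were called higher and 1 lower with a median of 0.00, and with equal summed RPKM 1 each way with a median of -0.03 and 20 members above 0. With the length and GC trend removed the median was 0.00.

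A10-FMT after busulfan was compared with B-sa, the same drug without transplant. Rps12 had 2867, 2823 and 2700 RPKM in B-sa and 2484, 2500 and 2449 RPKM in B+A10-FMT, with no overlap, and was called lower (log2 fold change -0.17, SE 0.04, limma adjusted p = 0.0299). Rps6 had 45.16, 44.98 and 46.25 RPKM in B-sa and 28.2, 11.7 and 23.1 RPKM in B+A10-FMT and was called lower (-1.16, SE 0.25, limma adjusted p = 0.0372). With Rps6-ps4 added, the Rps6 pair differed by -0.05 (limma adjusted p = 0.55).

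The 2 called genes are 2.56% of the 78, against 5.27% of all genes called and 1.27% called lower. The median of the members was -0.02, against 0.05 for all genes, and 31 members were above 0. The mice did not overlap for 7 members lower (8.97%) and 1 higher (1.28%), against 7.38% and 19.7% of all genes. Without B+A10-FMT mouse 3 or B-sa mouse 2, 0 members were called, and without B-sa mouse 1, B+A10-FMT mouse 1 or B+A10-FMT mouse 2, 1 was called. With equal summed RPKM the split of the calls and the sign of the median turned, with 8 members called higher and 1 lower, a median of 0.09 and 70 members above 0. With median-of-ratios scaling the median was -0.07 with 8 members above 0. The marker genes of macrophages summed to 293 to 330 RPKM in B-sa and 361 to 443 RPKM in B+A10-FMT, with 3 of 7 called higher, and 2 of 5 endothelial markers and 1 of 4 markers of NK cells were called higher. Of the markers of neutrophils 0 of 8 were above 0 and of those of proliferation 0 of 8, with none called, and the part of these lists in the result was not tested. Against Con-sa, B+A10-FMT had 0 of 78 members called by limma, beside 0.410% of all genes (0.118% higher and 0.292% lower), and 11 members (14.1%) had an unadjusted p under 0.05, near the 13.5% of all genes. The median was -0.06, against 0.00 for all genes, and 25 members had all B+A10-FMT mice below all Con-sa mice (32.1%), against 9.91% of all genes, and 0 had them above, against 11.7%. The markers of NK cells summed to 67.2 to 77.1 RPKM in Con-sa and 21.98 to 39.09 RPKM in B+A10-FMT, with 1 of 4 called lower, and those of B cells to 1991 to 2197 and 1775 to 1866 RPKM. Those of macrophages summed to 332 to 350 RPKM in Con-sa and 361 to 443 RPKM in B+A10-FMT, and those of proliferation to 582 to 635 and 659 to 697 RPKM. Those of fibroblasts and muscle summed to 115.5 to 154.0 RPKM in Con-sa and 100.1 to 113.7 RPKM in B+A10-FMT, with 0 of 5 above 0 and none called. The groups did not overlap in any of these sums, and their part in the result was not tested. With the length and GC trend removed the median was 0.00. Over both directions, 21.6% of all genes did not overlap.

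The comparison of B+A10-FMT with B+Con-FMT, which sets the 2 transplants side by side after the same drug, held the most called members as scaled here, although with equal summed RPKM it held 4 against 24 in B-sa against Con-sa, and with the length trend alone removed 2 against 6. Limma called 15 of the 78 genes (19.2%), all lower in B+A10-FMT, against 10.4% of all genes called, of which 2.78% were lower and 7.58% higher. All B+A10-FMT mice lay below all B+Con-FMT mice for 47 members (60.3%), against 11.2% of all genes, and for 0 members above, against 23.8%. In either direction 35.0% of all genes did not overlap. The median of the members was -0.11, against 0.05 for all genes, and 4 members were above 0. Every called difference was small, between -11.2% and -19.2% of the mean RPKM. The marker genes of macrophages summed to 265 to 350 RPKM in B+Con-FMT and 361 to 443 RPKM in B+A10-FMT, with 5 of 7 called higher, those of T cells to 331 to 410 and 282 to 326 RPKM, and those of endothelium to 59.9 to 66.6 and 75.4 to 80.1 RPKM, with 4 of 5 called higher. Of the markers of NK cells 2 of 4 were called higher, Eomes and Klrb1c, with 4 of 4 above 0 and a median of 0.49, and 1 of 8 markers of B cells was called lower. The markers of fibroblasts and muscle summed to 116.0 to 142.0 RPKM in B+Con-FMT and 100.1 to 113.7 RPKM in B+A10-FMT, with 0 of 5 above 0 and none called. The part of these lists in the result was not tested. The summed pancreatic acinar markers were 15530, 14670 and 9662 RPKM in B+Con-FMT and 534, 954 and 11430 RPKM in B+A10-FMT.

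Rplp2, an acidic protein of the stalk that contacts elongation factors, had the lowest fold change among the called genes. It had 1893, 1904 and 1681 RPKM in B+Con-FMT and 1498, 1471 and 1460 RPKM in B+A10-FMT (log2 fold change -0.30, SE 0.06, limma adjusted p = 0.00866). The 2 groups did not overlap, although B+Con-FMT mouse 3 lay below the highest B-sa mouse, at 1697 RPKM. Rps27l had 133, 127 and 138 RPKM in B+Con-FMT and 111, 111 and 103 RPKM in B+A10-FMT (-0.29, SE 0.07, limma adjusted p = 0.0194).

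Among small subunit genes, Rps21 followed, with 1720, 1621 and 1601 RPKM in B+Con-FMT and 1400, 1388 and 1287 RPKM in B+A10-FMT (-0.28, SE 0.07, limma adjusted p = 0.0223). Rps12 had 3000, 2900 and 2915 RPKM and 2484, 2500 and 2449 RPKM in the 2 groups (-0.25, SE 0.04, limma adjusted p = 0.00498). Rps12 was thus high in B-sa and B+Con-FMT and low in Con-sa and B+A10-FMT, with no overlap between the first and the second pair of groups. Fau, whose product is a ubiquitin-like protein fused to a small subunit protein, differed by -0.25, and Rps15, Rps9, Rps27a and Rps20 by -0.21 to -0.17.

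Of the large subunit, Rpl38, a protein known for its part in the translation of Hox mRNAs, had 1961, 1892 and 1794 RPKM in B+Con-FMT and 1563, 1599 and 1532 RPKM in B+A10-FMT (-0.27, SE 0.07, limma adjusted p = 0.0308). Rpl41 had 2707, 2681 and 2749 RPKM and 2320, 2307 and 2180 RPKM (-0.26, SE 0.06, limma adjusted p = 0.0223). Both groups were tight and far apart for Rpl41. Rplp2, Rpl38, Rpl41, Rpl37a, Rpl18, Rpl35a and Rpl13a made 7 of the 46 large subunit genes tested, and 8 of the 32 small subunit genes were called.

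The number of called genes in this comparison rested on the mice used. Leaving out 1 mouse gave between 2 and 10 called members, 2 without B+Con-FMT mouse 1, 3 without B+Con-FMT mouse 2, and 9, 3 and 4 without B+A10-FMT mouse 1, 2 and 3. Rplp2 and Rps12 stayed called in each of these 6 fits. The median of the members stayed between -0.12 and -0.10. The scaling moved both the median and the calls. With median-of-ratios scaling the median was -0.16 with 0 members called higher and 31 lower, with equal totals outside the globin genes -0.05 with 1 and 13, and with equal summed RPKM -0.01 with 1 and 3 and with 38 members above 0.

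**Figure D3:**
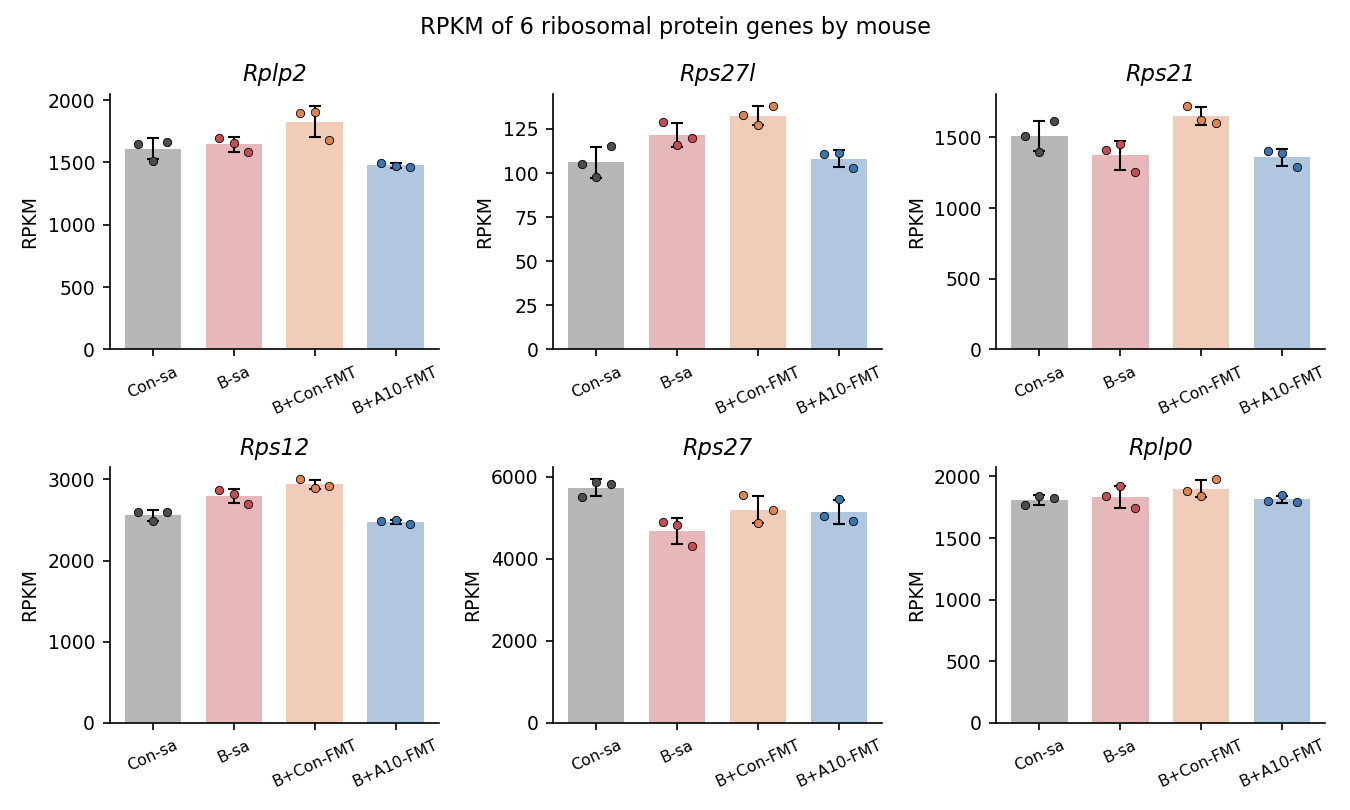
RPKM of Rplp2, Rps27l, Rps21, Rps12, Rps27 and Rplp0 in each of the 12 mice (points), with the mean (bars, from 0) and SD (error bars) of the 3 mice of a group. The B+A10-FMT mice lie below the B+Con-FMT mice for Rplp2, Rps27l, Rps21 and Rps12, the B-sa mice lie below the Con-sa mice for Rps27, and Rplp0 is nearly level at 1741 to 1976 RPKM.

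**Figure D4:**
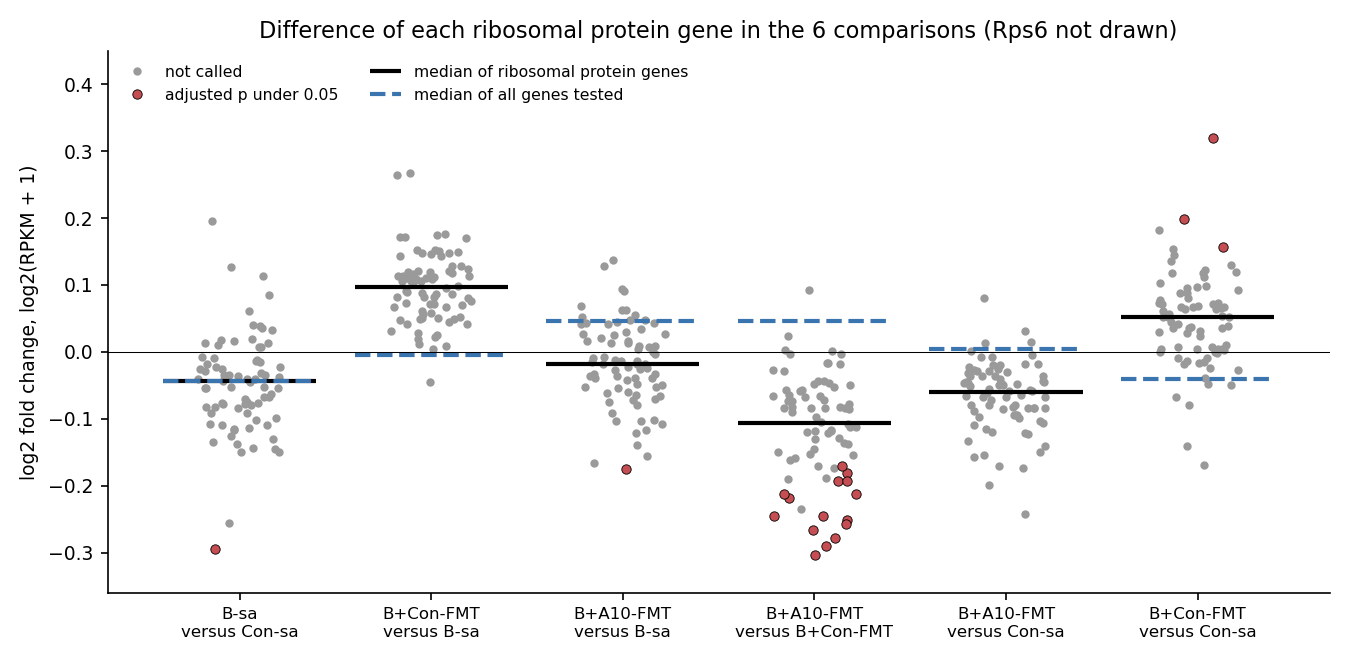
Log2 fold change of each ribosomal protein gene (points, called genes in red) in the 6 comparisons, with the median of the 78 ribosomal protein genes (solid line) and the median of all 12671 genes tested (dashed line). Rps6 was not drawn. The median of the members lies below the dashed line in B+A10-FMT against B+Con-FMT, with medians of -0.11 and 0.05, and on the line in B-sa against Con-sa, with medians of -0.04 and -0.04.

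Since the mRNAs of these genes are short, the differences were set beside those of other genes of like length. The length of a gene is that of its matched transcript of highest mean RPKM, or the median of its GENCODE transcripts where none matched. Of the 78 genes, 32 had a length under 750 bases and 68 under 1500 bases, against 18.1% under 1500 bases of the 12490 genes tested that have a length. The medians were 814.5 bases for the members and 2824 bases for all. In B+A10-FMT against B+Con-FMT, the log2 fold change of all genes went with length (Spearman rho 0.35, n = 12490 genes, which share the same 6 mice). Other genes under 750 bases had a median of -0.14 (n = 390) and the members under 750 bases had -0.14. Between 750 and 1500 bases the medians were -0.06 for other genes and -0.11 for members. In the next class, from 1500 bases upward, other genes had a median of 0.03 and the 8 members -0.08. In the class after that, other genes had 0.08 and the 2 members -0.13. Members and other genes thus lay on opposite sides of 0 in both of these classes. In the longest class, which held no member, other genes had a median of 0.13.

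When the dependence of the values on length and GC content was removed mouse by mouse, with the trend fitted over all genes, Rps20 alone of the 15 called genes stayed called. The median of the members moved to 0.00. The genes then called lower were Rps20 (-0.26), Rps15a (-0.20) and Rpl22 (-0.18), the 3 members of greatest transcript length. Before the removal Rps15a (-0.08) and Rpl22 (-0.15) were not called. Rpl5, at 2045 bases nearly as long as Rpl22 at 2051 bases, was not called after it. Rps20 and Rps15a are proteins of the small subunit, and Rpl22 is known for its part in T cell development. With the trend fitted without the members, 3 members were called lower and the median was again 0.00.

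In B-sa against Con-sa the short genes behaved otherwise. The trend of all genes ran the other way (Spearman rho -0.27), other genes under 750 bases had a median of 0.07, and the 32 short ribosomal protein genes had -0.08. With the length and GC trend removed, Rps27 remained called lower (-0.37, limma adjusted p = 0.00792) and Rpl32, a large subunit protein, was called lower as well (-0.18). In B+A10-FMT against B-sa, the same removal turned the median of the members from -0.02 to 0.06 and the called genes to Rps27 and Rpl32, both higher (0.32 and 0.23).

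In B+Con-FMT against Con-sa the medians under 750 bases were 0.10 for other genes and 0.06 for members, and with the trend removed Rps27l was called higher (0.25) and Rps27 lower (-0.25). Among the members alone, the Spearman rho of the fold change with length ran from -0.29 in B+Con-FMT against B-sa to 0.27 in B+A10-FMT against Con-sa over the 6 comparisons (n = 78 genes of the same mice), and it was 0.23 in B+A10-FMT against B+Con-FMT, 0.14 in B-sa against Con-sa and -0.16 in B+Con-FMT against Con-sa.

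The balance of the 2 subunits differed by little between groups. The ratio of the summed RPKM of the large to that of the small subunit was 1.22 ± 0.0055 in Con-sa mice, 1.24 ± 0.015 in B-sa mice, 1.21 ± 0.0066 with Con-FMT and 1.22 ± 0.0036 with A10-FMT (SD, n = 3 each). The B-sa mice, at 1.225 to 1.255, lay above the Con-sa mice, at 1.211 to 1.221, and the B+A10-FMT mice, at 1.218 to 1.225, above the B+Con-FMT mice, at 1.201 to 1.214. The median fold change in B+A10-FMT against B+Con-FMT was -0.13 for the small and -0.08 for the large subunit, and in B-sa against Con-sa it was -0.05 and -0.04. The Diamond-Blackfan genes, 19 members listed from general knowledge, had 1 called lower in B-sa against Con-sa, Rps27, and 2 called lower with A10-FMT against Con-FMT, Rpl18 and Rpl35a, with medians of -0.05 and -0.08, where 9.78% and 2.78% of all genes were called lower.

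Rpl5 and Rpl11, which carry 5S ribosomal RNA and signal to p53, were not called in any of the 6 comparisons as scaled here. Rpl11 had 1313 ± 9.5 RPKM in Con-sa mice, 1280 ± 98 in B-sa mice, 1322 ± 77 with Con-FMT and 1270 ± 52 with A10-FMT (SD, n = 3 each), and the 95% interval of its difference in B-sa against Con-sa ran from -0.17 to 0.09. Rpl5 had 1061 ± 6.9, 1006 ± 34, 1064 ± 13 and 1004 ± 3.9 RPKM in the same order, and its interval in B-sa against Con-sa ran from -0.16 to 0.01. Every B-sa mouse lay below every Con-sa mouse for Rpl5. With equal summed RPKM Rpl5 was called lower there (-0.17, limma adjusted p = 0.0293). With median-of-ratios scaling it was called lower in B+A10-FMT against B+Con-FMT (-0.14, limma adjusted p = 0.0331). Rps14, lost in the 5q- syndrome of bone marrow in humans, ran from 1682 RPKM in B-sa mouse 3 to 2287 RPKM in B-sa mouse 1 and was not called either.

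Genes just outside the naming rule were read for comparison. Rps3a1, the mouse gene for a small subunit protein, had 2184 RPKM over the 12 mice and Rack1, a scaffold on the small subunit, 1045 RPKM. Rpl36al, a relative of Rpl36a, was the only one of the genes named here that was called, lower in B+A10-FMT against B+Con-FMT (-0.20, SE 0.05, limma adjusted p = 0.0393). Rps3a1 differed by -0.18 there (limma adjusted p = 0.0524) and Rpl22l1, the relative of Rpl22, by -0.19 (limma adjusted p = 0.0592). Rpl7l1 had 41.0 RPKM and Rps27rt 1.23 RPKM, and neither was called.

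The proteins of the mitochondrial ribosome, which are encoded by other nuclear genes, gave a different count after busulfan. In B-sa against Con-sa, 7 of 78 were called higher and 0 lower by limma, with a median of 0.09 and 62 genes above 0, whereas the cytosolic genes had a median of -0.04 and 18 above 0. Of all genes tested, 4.73% were called higher and 9.78% lower there. Mrpl27 differed by 0.44 (SE 0.11, limma adjusted p = 0.0228) and Mrpl51 by 0.36 (SE 0.07, limma adjusted p = 0.00774). With A10-FMT against Con-FMT, 7 mitochondrial genes were called lower, against 2.78% of all genes, with a median of -0.12 beside the -0.11 of the cytosolic genes. Mrps6 had the lowest value, -0.47 (SE 0.08, limma adjusted p = 0.00823), followed by Mrpl14 at -0.39. Genes other than the members under 750 bases had medians of 0.07 in B-sa against Con-sa and -0.14 with A10-FMT against Con-FMT. Those of 750 to 1500 bases had 0.04 and -0.06. The part of transcript length in the mitochondrial list was not tested.

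Other genes of the translation machinery gave few calls. Of 24 translation factors and other products of TOP mRNAs, 2 were called higher and 2 lower in B-sa against Con-sa, where 4.73% of all genes were higher and 9.78% lower, so that these counts are not set apart from all genes. Eef2, the translocation factor, had 931, 918 and 904 RPKM in Con-sa and 814, 798 and 797 RPKM in B-sa (-0.19, SE 0.04, limma adjusted p = 0.0121), while Btf3, a subunit of the nascent chain complex, was higher (0.22, SE 0.06, limma adjusted p = 0.0249). Between the 2 transplants, Btf3 (-0.23) and Eef1b2 (-0.19), an exchange factor of elongation, were the 2 genes called, both lower, as were 2.78% of all genes.

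Of 65 ribosome biogenesis factors, 3 were called higher in B-sa against Con-sa, among them Noc4l (0.20) and Nop58 (0.19), a core protein of box C/D particles, a share close to the 4.73% of all genes. Between the 2 transplants, 2 were called lower with A10-FMT, Gar1 (-0.38), a core protein of box H/ACA particles, and Emg1 (-0.24), beside 2.78% of all genes. Of 27 genes that control ribosomal protein mRNAs and growth, 2 were called higher and 2 lower in B-sa against Con-sa, with Ssb, the La protein that binds RNA 3′ ends, at 0.26 and Eif4ebp2, a translation repressor, at -0.25, against 4.73% and 9.78% of all genes. Mtor itself was lower (-0.24, SE 0.07, limma adjusted p = 0.034). Between the 2 transplants the median of these 27 genes was 0.05.

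Rps27l is a known p53 target. Of 15 further genes listed, p53 targets and Trp53, the gene of p53 itself, 14 were tested. After busulfan alone, 3 of these were called higher than with saline, where Cdkn1a, the inhibitor of the cell cycle, had 7.09, 7.67 and 9.27 RPKM in Con-sa and 12.6, 14.7 and 12.2 RPKM in B-sa (0.66, SE 0.17, limma adjusted p = 0.0322) and Psrc1 differed by 0.56 (SE 0.16, limma adjusted p = 0.0416) and Phlda3 by 0.40. Of all genes 4.73% were called higher in this comparison. The 14 genes as a list were split, with 8 above 0 and a median of 0.04. In B+Con-FMT against Con-sa, 5 were called higher, against 2.30% of all genes, with 10 of the 14 above 0 and a median of 0.135. A10-FMT against Con-FMT gave 3 called lower, Aen (-0.44), Fas (-0.40) and Bax (-0.22), which take part in apoptosis, and Sesn2 was called higher (0.35), beside 2.78% of all genes lower and 7.58% higher. Between these 2 transplants 7 of the 14 genes were above 0, with a median of 0.00. Rps27l itself was called higher in B+Con-FMT against Con-sa and lower in B+A10-FMT against B+Con-FMT, as given above.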

How the data were processed

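Spleen mRNA enriched with oligo(dT) was sequenced in 12 mice. The authors aligned the reads, computed RPKM and deposited these RPKM for 60654 RefSeq transcripts per mouse, without counts. The study's methods name SOAPaligner 2.20 and an Illumina sequencer, whereas the submitters' processing notes name HISAT, Bowtie2 and mm10, and the labels name BGISEQ protocols. The SOAPaligner options in the methods report every hit of a read that matches several places, and how such hits entered the RPKM is not given in the sources used here. The authors' own comparison used DEGseq.

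RPKM were summed per gene, and symbols and positions come from RefSeq (GRCm38.p6) and lengths, GC content and transcripts from GENCODE M21. Limma 3.58.1 (R 4.3.3) was fitted to log2(RPKM + 1) (trend and robust settings, all 12 mice in 1 fit, two-sided p), which was also tested on simulated data. Genes named in the text were up to 5 called members of largest change in each direction per comparison, the 5 of highest and the 5 of lowest level, a set of known role, relatives and genes just outside the rule, and 2 called genes per other list. Fas, Bax, Sesn2, Eef1b2, Mtor, Rpl36, Rpl32, Rpl18, Rpl35a, Phlda3 and the further called members were named after their values were seen. The members and lists were chosen with earlier results of these data known. Depth is known only as a ratio between mice, from the steps of the lowest values, so that no counting interval can be given. The replicate numbers come from the sample titles. Figures were drawn with matplotlib 3.10.9. The results with a wider set of members are not reported here.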

Additional observations from a re-analysis of the deposited data

How the results depend on the processing

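The precision of these values rests on 3 mice per group. The SD of the members' median between mice of a group was 0.0396 on the log2 scale, and differences of the median under about this were not resolved. This SD sets no limit for single genes, whose differences are to be read with their own SE. Rpl22 in B+A10-FMT against B+Con-FMT, at -0.15 (SE 0.05), was not called. Of the 21 calls of single members, 21 held with a pseudocount of 0.1, with a filter of RPKM of at least 1 in every mouse and with median-of-ratios scaling, 18 with only the 2 groups compared and with equal totals outside the globin genes, 15 without a filter, 14 with NM transcripts only, 6 with equal summed RPKM, 3 with the length and GC trend removed and 2 with the length trend alone removed. Equal summed RPKM, the length trend alone, the trend fitted without the members and the added copies were chosen after seeing the data. No call changed its direction. Rps27 in B-sa against Con-sa held under all 13 alternatives and without any 1 mouse.

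Same-numbered mice of 2 groups correlated between -0.373 and 0.303. Mice of different numbers were not correlated beside them, so whether the replicate numbers pair the mice was not settled. With the replicate number as a block, 10 members were called with A10-FMT against Con-FMT, 2 with Con-FMT against Con-sa, 1 in B-sa against Con-sa, 1 with A10-FMT against B-sa, and 0 with Con-FMT against B-sa or A10-FMT against Con-sa.

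For B-sa against Con-sa, members called were 2 with a pseudocount of 0.1, without a filter, with only the 2 groups compared and with the length and GC trend removed, 4 with median-of-ratios scaling (median 0.0039) and with equal totals outside the globin genes, 24 with equal summed RPKM (median -0.1344), 6 with the length trend alone removed and 3 with the trend fitted without the members. For B+Con-FMT against B-sa, the median was 0.044 with equal totals outside the globin genes. For B+A10-FMT against B-sa, members called were 1 with the block or with the copies added, 0 with only the 2 groups compared and 9 with equal summed RPKM, and the median was -0.0705 with median-of-ratios scaling, 0.0928 with equal summed RPKM, 0.056 with the length and GC trend removed, 0.0597 with the length trend alone removed and 0.059 with the trend fitted without the members. For B+A10-FMT against B+Con-FMT, members called were 9 without a filter and with NM transcripts only, 31 with median-of-ratios scaling (median -0.1579), 4 with equal summed RPKM (median -0.0058), 3 with the length and GC trend removed (median 0.0017), 2 with the length trend alone removed (median -0.0028) and 3 with the trend fitted without the members (median 0.0022), and the median was -0.0481 with equal totals outside the globin genes. For B+A10-FMT against Con-sa, the median was 0.0011, 0.0044 and 0.001 with the length and GC trend removed, the length trend alone removed and the trend fitted without the members. For B+Con-FMT against Con-sa, members called were 6 with median-of-ratios scaling (median 0.098) and 1 with the trend fitted without the members (median -0.0027), and the median was 0.0019 with equal totals outside the globin genes, -0.029 with equal summed RPKM, 0.0005 with the length and GC trend removed and -0.0005 with the length trend alone removed. The cause was not tested.

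Leaving out 1 mouse gave 1 to 2 members called and medians of -0.0701 to -0.0027 in B-sa against Con-sa, 0 to 0 and 0.0527 to 0.1158 with Con-FMT against B-sa, 0 to 2 and -0.0532 to 0.0068 with A10-FMT against B-sa, 2 to 10 and -0.1168 to -0.0975 with A10-FMT against Con-FMT, 0 to 0 and -0.0748 to -0.045 with A10-FMT against Con-sa, and 0 to 3 and 0.0324 to 0.0734 with Con-FMT against Con-sa. The share of summed RPKM with A10-FMT, with Con-FMT, in B-sa and in Con-sa was 18.05%, 17.63%, 16.98% and 17.62% with the length and GC trend removed and 16.7%, 16.72%, 15.48% and 17.26% with NM transcripts only.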
